A study of Homo sapiens with 6 samples.

Results

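ATF4 is the transcription factor whose messenger RNA is translated more when the initiation factor eIF2 is phosphorylated, and the 10 genes examined here are ATF4 and 9 genes linked to it in stress transcription: ATF5, CEBPG, CEBPB, DDIT3, DDIT4, TRIB3, SESN2, NUPR1 and ASNS. They were taken by gene symbol from a table of 61806 genes, and each symbol matched 1 row. RNA-seq had been done on 6 samples of HCT116, an established line of human colorectal carcinoma. The cells of 3 samples carried a non-targeting control duplex (si-NC, genotype labelled wildtype) and those of the other 3 a duplex that targets STRIP2 for RNA interference (si-STRIP2, genotype labelled STRIP2 knockdown). STRIP2 is part of STRIPAK, a complex that joins a phosphatase to its kinases. All 6 came from 1 cell line in McCoy's 5A medium with serum; the labels give neither the sequence of the RNA duplexes nor the time after transfection, and do not tell if replicates were grown apart, so that p-values measure the spread between these libraries, which may be technical. The series' title names LCN2 and ferroptosis; the comparison described is that of si-STRIP2 with si-NC.

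The total count per library ranged from 17184963 to 21721218, and mitochondrial genes took 4.88% to 8.88% of it. STRIP2 itself stood at 72.6% of its control level in si-STRIP2 cells (log2 fold change -0.46, where SE, the standard error, was 0.083; edgeR adjusted p = 1.62e-05). Of 11 markers of colorectal epithelium, 6 had a mean of at least 1 FPKM, EPCAM, CDH1 and the keratins KRT8, KRT18 and KRT19 among them, while CDX1 had 0 counts in every library. KRT20, VIL1, LGALS4 and CEACAM5, also on this list, were below 1 FPKM in every library. The summed level of the 11 markers was 691 to 721 FPKM in si-NC and 668 to 691 FPKM in si-STRIP2 libraries. Most of this sum came from EPCAM and the keratins KRT8, KRT18 and KRT19. Of 12 markers of blood, vessel, connective tissue, liver and glial cells, 1 (COL1A1) reached that mean, COL1A2 had 0 counts in all libraries, and the sum was 2.44 to 2.91 against 2.03 to 2.75 FPKM.

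As background, 4 kinases that sense amino acid shortage, misfolded protein in the endoplasmic reticulum, viral RNA and haem deficiency or mitochondrial stress phosphorylate eIF2, which slows translation in general and raises that of ATF4. ATF4 is a basic leucine zipper (bZIP) protein that binds DNA as a dimer, often with a C/EBP protein, at composite elements in genes of amino acid supply and stress. DDIT3, known as CHOP, and TRIB3 are induced when the stress lasts, and feed back on growth and survival. Because ATF4 is set mainly by translation and protein turnover, its messenger RNA level and the level of its targets are separate measurements.

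Of the 10 genes, 6 were lower in si-STRIP2 cells (CEBPG, DDIT3, DDIT4, TRIB3, SESN2 and NUPR1), 2 were higher (ATF4 and ASNS), and ATF5 and CEBPB did not pass the test. A gene is called here when its adjusted p in edgeR's quasi-likelihood test, with Benjamini-Hochberg adjustment over all 15687 tested genes, was under 0.05. All 10 genes passed the filter on low counts. This background is high: 54.8% of all tested genes were called, 27.0% as lower and 27.8% as higher. The median log2 fold change was -0.35 over the 10 genes and 0.01 over all tested genes. The genes that fell included 5 that dropped by more than 1.4-fold, whereas the rises of ATF4 and ASNS were of 1.19-fold and 1.18-fold. By absolute log2 fold change, those 5 ranked from 851 (NUPR1) to 3086 (SESN2) among the 15687 tested genes. Changes of this size were therefore also seen in many other genes. All levels are in FPKM, fragments scaled to the gene's exonic length and to the library's total count, and in bulk RNA a change in every cell and a change in the share of cells that hold the transcript cannot be told apart.

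**Figure D1:**
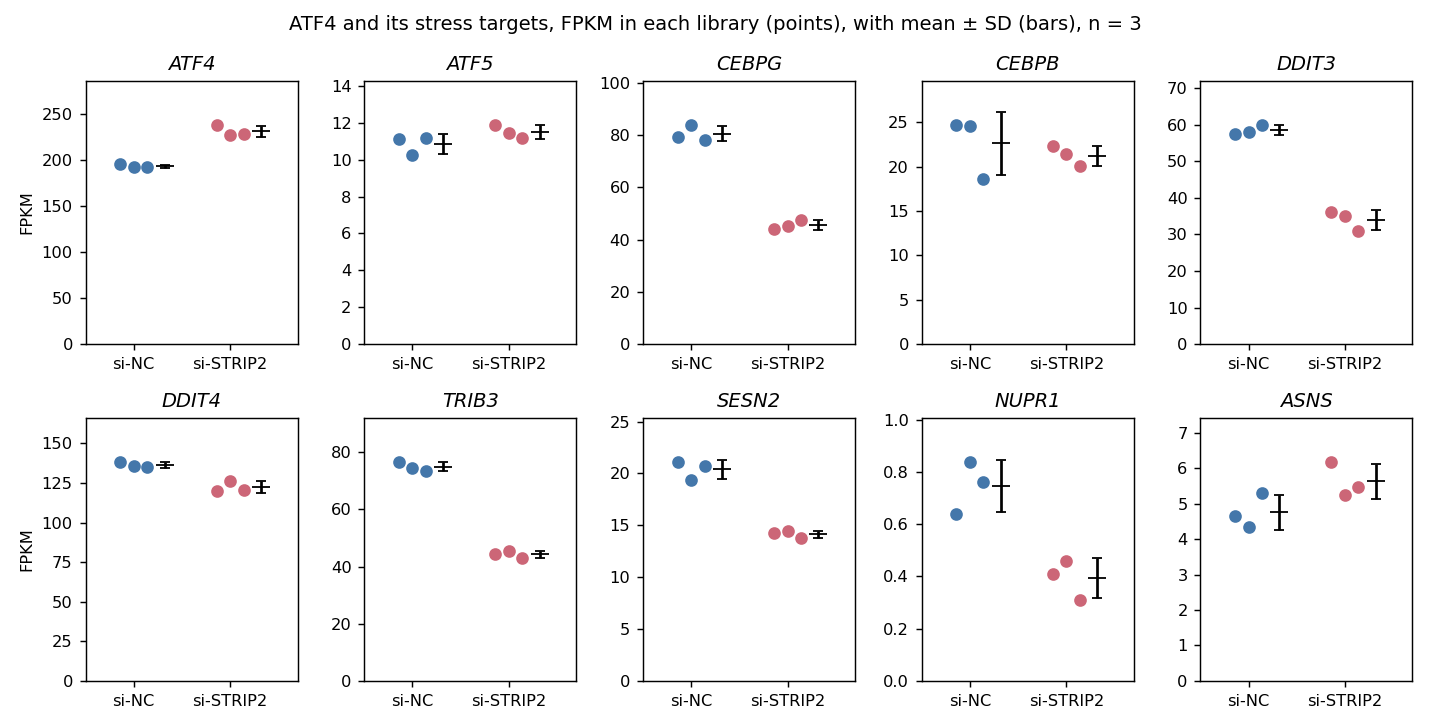
FPKM (vertical axes, from 0) of the 10 genes in each of the 3 si-NC (blue) and 3 si-STRIP2 (red) libraries, with the mean and SD of each group as a black bar. The groups do not overlap for ATF4, which is higher, nor for CEBPG, DDIT3, DDIT4, TRIB3, SESN2 and NUPR1, which are lower, and they overlap for ATF5, CEBPB and ASNS. Over all tested genes, the groups do not overlap for 30.0% in the higher and 28.7% in the lower direction.

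ATF4 (ENSG00000128272, chromosome 22, 39519695 to 39522683, plus strand) was the most abundant of the 10 and rose. It had 195.13, 192.36 and 192.52 FPKM in the si-NC libraries and 238.07, 227.61 and 227.70 FPKM in the si-STRIP2 libraries. Every si-STRIP2 library lay above every si-NC library, and the coefficient of variation of the control libraries was 0.804%. The mean went from 193.3 ± 1.56 to 231.1 ± 6.01 FPKM (SD, n = 3), a log2 fold change of 0.25 ± 0.041 (standard error; edgeR adjusted p = 2.60e-06). FPKM did not overlap between the groups for 58.6% of all tested genes, 30.0% in the higher and 28.7% in the lower direction. The 4 annotated ATF4 pseudogenes held 0.107% as many counts as ATF4.

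The genes around eIF2, which govern ATF4 translation, did not move one way. Of 16 such genes, 7 were lower, 5 higher and 4 not called, with a median log2 fold change of -0.03. The shares of all tested genes were 27.0% lower and 27.8% higher, so that movement both ways is not particular to this list. PPP1R15A (GADD34), the inducible subunit that directs a phosphatase to eIF2 and is itself induced in this response, fell from 47.84 ± 1.03 to 27.45 ± 1.02 FPKM (log2 change -0.81, SE 0.043; edgeR adjusted p = 3.25e-17). EIF2AK3, which encodes the endoplasmic reticulum kinase PERK, fell from 2.037 ± 0.11 to 1.217 ± 0.0777 FPKM, and EIF2S1, the phosphorylated subunit of eIF2 itself, from 69.66 ± 4.02 to 49.71 ± 1.11 FPKM. Their log2 fold changes were -0.75 and -0.49, with edgeR adjusted p-values of 7.14e-12 and 7.59e-12. In the other direction, OMA1, a mitochondrial protease that relays mitochondrial stress to this pathway, rose from 6.78 ± 0.428 to 9.727 ± 0.272 FPKM (log2 fold change 0.52, edgeR adjusted p = 1.74e-08). EIF2B1 and EIF2B2, subunits of the exchange factor that phosphorylated eIF2 blocks, rose by 0.33 and 0.37 on the log2 scale.

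Promoters were searched for the composite element that ATF4 and C/EBP dimers are known to bind. The letters searched were TGATGNAA on both strands, where N is any base, in windows from 250 bases before to 50 bases after each transcript start (RefSeq, GRCh38.p14). Of the 10 genes, 9 matched a window by symbol; NUPR1 did not. The core was found in ASNS and CEBPG, against 4.46% of all 27305 genes with a window. The longer form TGATGCAAT, which contains the core, and the cyclic AMP response element TGACGTCA, which does not, were each found in 0 of the 9 genes. They occurred in 0.293% and 2.25% of all genes. Bases outside the windows were not searched, so that a match farther from a start would be missed. Of 55 further genes on 4 lists of ATF4 targets described below, 42 have a window and 19 of these (45.2%) hold the core. The core's matches are shown for ASNS and CEBPG and, chosen after their values were seen, for the 2 called genes with the largest falls and the 2 with rises among those 19, since they moved in both directions; each is 30 bases, 5′ to 3′ on the strand of the gene, with the match in capitals. In GOT1, CARS1 and SLC1A4 the match is on the opposite strand.
ASNS (chr7:97872458-97872487, minus strand, higher): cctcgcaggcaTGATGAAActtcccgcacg
CEBPG (chr19:33374060-33374089, plus strand, lower): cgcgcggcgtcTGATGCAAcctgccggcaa
ATF3 (chr1:212565205-212565234, plus strand, lower): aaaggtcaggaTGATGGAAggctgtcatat
GOT1 (chr10:99430804-99430833, minus strand, lower): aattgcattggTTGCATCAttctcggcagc
CARS1 (chr11:3057407-3057436, minus strand, higher): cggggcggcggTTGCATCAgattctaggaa
SLC1A4 (chr2:64989381-64989410, plus strand, higher): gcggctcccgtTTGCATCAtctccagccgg

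The match in ASNS begins 68 bases before a RefSeq start, and the printed bases overlap an exon of 3 of the 7 ASNS transcripts in the basic set of GENCODE 29. In CEBPG it begins 42 bases before the second of its RefSeq starts, in an intron of 1 of 2 transcripts. The windows of GOT1, CARS1 and SLC1A4 overlap an exon of their gene, and that of ATF3 lies outside its transcripts. Of the 19 target genes with the core, 10 were called lower, 2 higher and 7 not called. Of 23 target genes whose window lacks it, 21 were tested, with 14 lower, 5 higher and 2 not called. Genes that share these letters therefore included genes that rose, fell and did not pass. A match is a description of the sequence and was not tested as a binding site.

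Among the bZIP proteins that pair with ATF4 or share its targets, CEBPG and DDIT3 fell while ATF5 and CEBPB did not pass. CEBPG (ENSG00000153879, chromosome 19, 33373685 to 33382686, plus strand) encodes a C/EBP protein that lacks a strong activation domain and forms heterodimers with ATF4. Its level was 79.44, 83.90 and 78.28 FPKM in si-NC and 44.01, 45.27 and 47.67 FPKM in si-STRIP2 libraries. The groups were well apart, and 56.7% of the control level remained. The mean was 80.54 ± 2.97 against 45.65 ± 1.86 FPKM (SD, n = 3), which is a log2 fold change of -0.82 ± 0.042 (standard error; edgeR adjusted p = 1.29e-17). The promoter match printed above for CEBPG has the same 8-base core type as that of ASNS, which rose.

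DDIT3 (ENSG00000175197, chromosome 12, 57516588 to 57521737, minus strand) encodes CHOP, a C/EBP relative that promotes cell death when stress is prolonged. It had 57.38, 58.08 and 59.93 FPKM in si-NC and 36.10, 35.01 and 30.83 FPKM in si-STRIP2 libraries. All si-STRIP2 libraries were lower, and the third of them was the lowest. DDIT3 went from 58.46 ± 1.32 to 33.98 ± 2.78 FPKM (SD, n = 3; log2 change -0.78, SE 0.051; edgeR adjusted p = 8.14e-15). The neighbouring gene MARS1 overlaps DDIT3 by 982 bases on the opposite strand and held 555% as many counts. Another gene on the opposite strand, MBD6, overlaps DDIT3 by 1028 bases and held 39.8% as many counts as DDIT3. The library kit was directional, but whether counting used the strand is not given in the sources used here. MARS1 itself had a log2 fold change of -0.12.

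ATF5 (ENSG00000169136, chromosome 19, 49928702 to 49933935, plus strand), the closest relative of ATF4 and a regulator of the mitochondrial stress response, had 11.14, 10.23 and 11.17 FPKM in si-NC. In si-STRIP2 libraries it had 11.88, 11.45 and 11.16 FPKM. The groups overlapped, and the log2 fold change was 0.08 ± 0.063 (standard error; edgeR adjusted p = 0.292). NUP62, which overlaps ATF5 by 1063 bases on the opposite strand, held 236% as many counts and had a log2 fold change of 0.34.

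CEBPB (ENSG00000172216, chromosome 20, 50190830 to 50192668, plus strand) encodes a C/EBP activator of inflammatory and stress genes. Its values were 24.71, 24.60 and 18.57 FPKM in si-NC and 22.30, 21.40 and 20.05 FPKM in si-STRIP2 libraries. The third control library was below all others, so that the groups overlapped. The log2 fold change was -0.10 ± 0.072 (standard error; edgeR adjusted p = 0.249). Without si-NC replicate 3 it was -0.22 and passed (edgeR adjusted p = 0.00195), so that the outcome for CEBPB rests on that library.

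The genes that act on signalling and growth fell. TRIB3 (ENSG00000101255, chromosome 20, 362835 to 397559, plus strand) encodes a pseudokinase that binds AKT and restrains ATF4 and CHOP. It had 76.76, 74.51 and 73.61 FPKM in si-NC and 44.43, 45.54 and 43.01 FPKM in si-STRIP2 libraries. The coefficient of variation was 2.16% and 2.86%, and the si-STRIP2 mean was 59.1% of that in si-NC. The log2 fold change of TRIB3 was -0.76 ± 0.041 (standard error; edgeR adjusted p = 3.80e-17).

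SESN2 (ENSG00000130766, chromosome 1, 28259518 to 28282491, plus strand) encodes sestrin 2, a leucine sensor that holds back the growth kinase complex mTORC1 through GATOR2. Its level was 21.14, 19.32 and 20.71 FPKM in si-NC and 14.27, 14.42 and 13.75 FPKM in si-STRIP2 libraries. The groups did not overlap, and SESN2 went from 20.39 ± 0.951 to 14.15 ± 0.352 FPKM (SD, n = 3). The log2 fold change was -0.53 ± 0.05 (standard error; edgeR adjusted p = 4.75e-11).

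DDIT4 (ENSG00000168209, chromosome 10, 72273919 to 72276036, plus strand) encodes REDD1, which also restrains mTORC1, through the TSC complex. It was the second most abundant of the 10 genes, at 138.55, 135.47 and 135.01 FPKM in si-NC and 119.88, 126.58 and 120.90 FPKM in si-STRIP2 libraries. All si-STRIP2 libraries were below all control libraries, but the fall was the smallest of the 6. The mean went from 136.3 ± 1.92 to 122.5 ± 3.61 FPKM (SD, n = 3), a log2 fold change of -0.16 ± 0.04 (standard error; edgeR adjusted p = 0.00103). With values scaled to TPM, limma gave DDIT4 -0.15 and an adjusted p of 0.14, so that this call depends on the scaling and test.

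NUPR1 (ENSG00000176046, chromosome 16, 28532708 to 28539008, minus strand) encodes a small chromatin protein induced by many stresses. It was by far the least abundant, with 77, 80 and 72 counts in si-NC and 42, 44 and 29 in si-STRIP2. These counts correspond to 0.64, 0.84 and 0.76 FPKM against 0.41, 0.46 and 0.31 FPKM. The groups did not overlap. NUPR1 had the lowest log2 fold change of the 10, -0.93, and also the largest standard error, 0.19 (edgeR adjusted p = 7.97e-05). Its exonic size in the table is 5508 bases, the largest of the 10, against 1307 bases for DDIT3, and FPKM depends on that size.

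ASNS (ENSG00000070669, chromosome 7, 97851677 to 97872542, minus strand) encodes asparagine synthetase, the classical amino acid response gene. It had 4.66, 4.33 and 5.29 FPKM in si-NC and 6.19, 5.26 and 5.46 FPKM in si-STRIP2 libraries. The groups overlapped, because the third control library was above the second si-STRIP2 library. The mean rose from 4.76 ± 0.488 to 5.637 ± 0.49 FPKM (SD, n = 3), a log2 fold change of 0.24 ± 0.076 (standard error; edgeR adjusted p = 0.00778). The call was lost without si-NC replicate 2 (0.17, edgeR adjusted p = 0.0687) and without si-STRIP2 replicate 1 (0.18, edgeR adjusted p = 0.084). A second annotated gene, ENSG00000284707, overlaps ASNS on the same strand over 20855 bases and held 107 counts, 3.84% as many as ASNS. Reads in the shared stretch could be split between them or left out, so that the level of ASNS is uncertain.

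**Figure D2:**
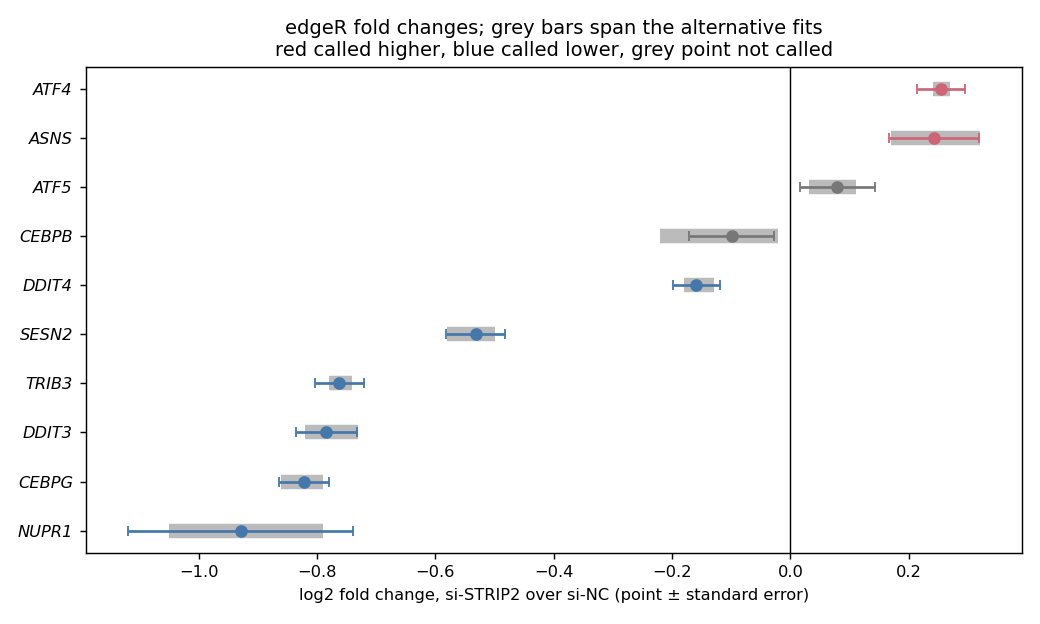
Log2 fold change of each gene (horizontal axis, si-STRIP2 over si-NC) from edgeR, with its standard error as a thin bar; thick grey bars span the values under the alternative fits, 13 for NUPR1 and 17 for each of the others. The grey bars of CEBPG, DDIT3, TRIB3 and NUPR1 lie below -0.7, that of SESN2 lies from -0.58 to -0.50, and no bar crosses 0.

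The levels per length had the same order in both groups: ATF4, DDIT4, CEBPG, TRIB3, DDIT3, CEBPB, SESN2, ATF5, ASNS and NUPR1. Some neighbours in this order did not differ beyond their spread. In si-NC, the ranges of CEBPB (18.57 to 24.71 FPKM) and SESN2 (19.32 to 21.14 FPKM) overlapped, whereas in si-STRIP2 they were apart. In si-STRIP2, the ranges of CEBPG (44.01 to 47.67 FPKM) and TRIB3 (43.01 to 45.54 FPKM) overlapped, whereas in si-NC they were apart.

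A ratio of 2 genes within a library does not depend on how libraries are scaled, so each gene was also set against ATF4. CEBPG stood at 40.7%, 43.6% and 40.7% of the ATF4 level in si-NC libraries and at 18.5%, 19.9% and 20.9% in si-STRIP2 libraries. TRIB3 went from 39.3%, 38.7% and 38.2% to 18.7%, 20.0% and 18.9%, and DDIT3 from 29.4%, 30.2% and 31.1% to 15.2%, 15.4% and 13.5%. On the log2 scale these ratios changed by -1.08 for CEBPG, -1.02 for TRIB3 and -1.04 for DDIT3. The ratios of ASNS to ATF4 were 2.39%, 2.25% and 2.75% against 2.60%, 2.31% and 2.40%, a difference of -0.01 in mean log2 ratio. Without each library in turn, this difference ranged from -0.07 to 0.07. As the level of ASNS is uncertain and its groups overlapped, an equal rise of ASNS and ATF4 is not read from this. The groups did not overlap for 8 of the 9 ratios, each with an exact 2-sided permutation p of 0.1, which is the smallest that 3 against 3 allows (0.113 after adjustment over the 9 ratios). All 8 were lower in si-STRIP2; with ATF4 itself higher, the ratio to ATF4 was lower without overlap for 53.3% of the other tested genes, and did not overlap in either direction for 64.0%, so that nothing particular to the 8 is read from this count. For ASNS the exact permutation p was 1. All 9 ratios share the ATF4 value of each library.

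**Figure D3:**
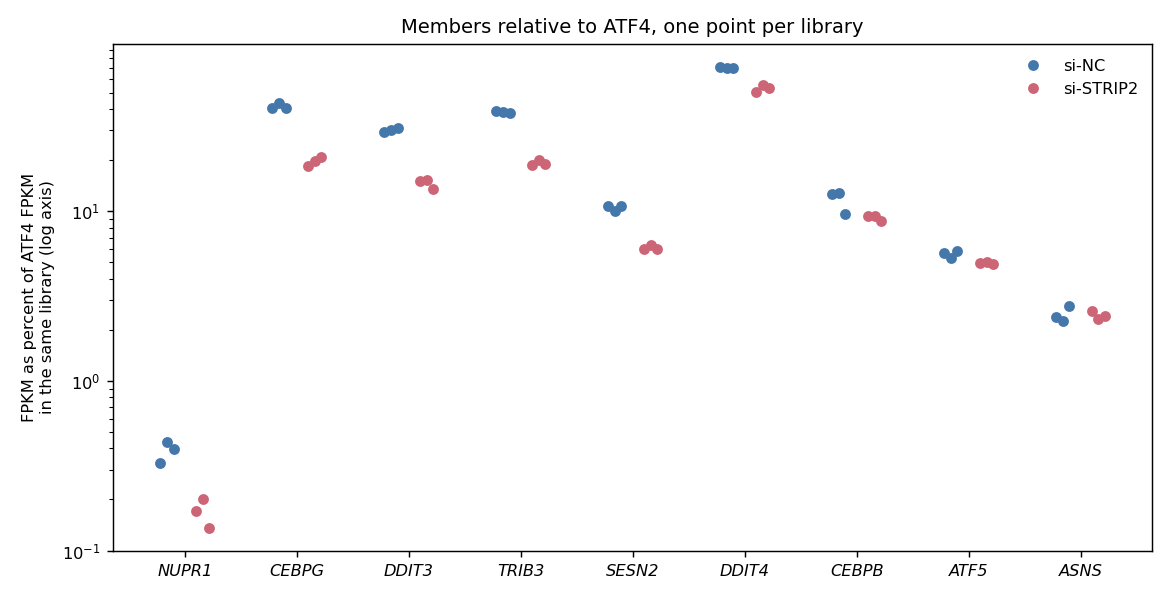
FPKM of each gene as a percent of ATF4 FPKM in the same library (vertical log axis), with si-NC libraries in blue and si-STRIP2 libraries in red. CEBPG falls from about 41% to about 20% of the ATF4 level, and the ASNS points of the groups overlap, between 2.25% and 2.75%.

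The other targets were described from 4 lists, of stress and CHOP targets, amino acid transporters, amino acid enzymes and tRNA synthetases, which together hold 55 genes besides the 10. Of these, 52 were tested, and 30 were lower, 10 higher and 12 not called, with a median log2 fold change of -0.14. Of all tested genes, 27.0% were lower and 27.8% higher. Of the 21 tested stress and CHOP targets, 17 were lower and 1 higher, with a median of -0.51. SLC7A11, the cystine importer, fell from 59.93 ± 4.00 to 25.01 ± 0.147 FPKM, and BCL2L11, the death factor BIM, from 9.553 ± 0.0896 to 4.387 ± 0.0404 FPKM (SD, n = 3). The angiogenic factor VEGFA fell from 12.80 ± 0.35 to 7.457 ± 0.224 FPKM. Their log2 fold changes were -1.26, -1.13 and -0.78, with an edgeR adjusted p of at most 3.86e-17. The gene that rose was EIF4EBP1, which encodes a repressor of cap-dependent translation, with a log2 fold change of 0.17.

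Of 10 tested amino acid transporters, 7 were lower and 1 was higher, with a median of -0.25, against 27.0% lower among all tested genes. SLC7A11 is on this list as well as on that of the stress targets. The stress list also shares PCK2, CTH and GPT2 with the enzymes, and ATF3 and CEBPA with the bZIP genes. It shares EIF4EBP1 with the mTORC1 genes and HERPUD1 with the XBP1 and ATF6 targets, which share XBP1 with the bZIP genes. Counts of different lists are therefore not separate. Beside SLC7A11, the glutamine carrier SLC38A1 had a log2 fold change of -0.54 and the cationic amino acid carrier SLC7A1 of -0.43 (edgeR adjusted p = 5.99e-13 and 5.32e-11). SLC1A4, a carrier of neutral amino acids, had 0.20, and its call was lost under 8 of 17 alternatives.

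Of 13 tested amino acid enzymes, 5 were lower and 4 higher, with a median of -0.03. GOT1, the cytosolic aspartate aminotransferase, fell from 136.8 ± 5.40 to 76.08 ± 1.51 FPKM (log2 fold change -0.85, edgeR adjusted p = 3.10e-18). PSPH and PCK2, of serine synthesis and of mitochondrial phosphoenolpyruvate, had log2 fold changes of -0.58 and -0.40. PHGDH, the first enzyme of serine synthesis, rose from 17.82 ± 0.0721 to 24.09 ± 0.827 FPKM (log2 fold change 0.43, edgeR adjusted p = 3.04e-11), and SHMT2 and PSAT1 rose by 0.20 and 0.16. The first and last enzymes of serine synthesis, PHGDH and PSPH, thus moved in opposite directions. Of 12 tRNA synthetases, 4 were lower (the largest fall being that of TARS1, -0.16) and 4 higher, among them EPRS1 (0.30), CARS1 (0.29) and YARS1 (0.29). These counts of enzymes and synthetases are near the shares of all tested genes, 27.0% lower and 27.8% higher, and nothing particular to either list is read from them.

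**Figure D4:**
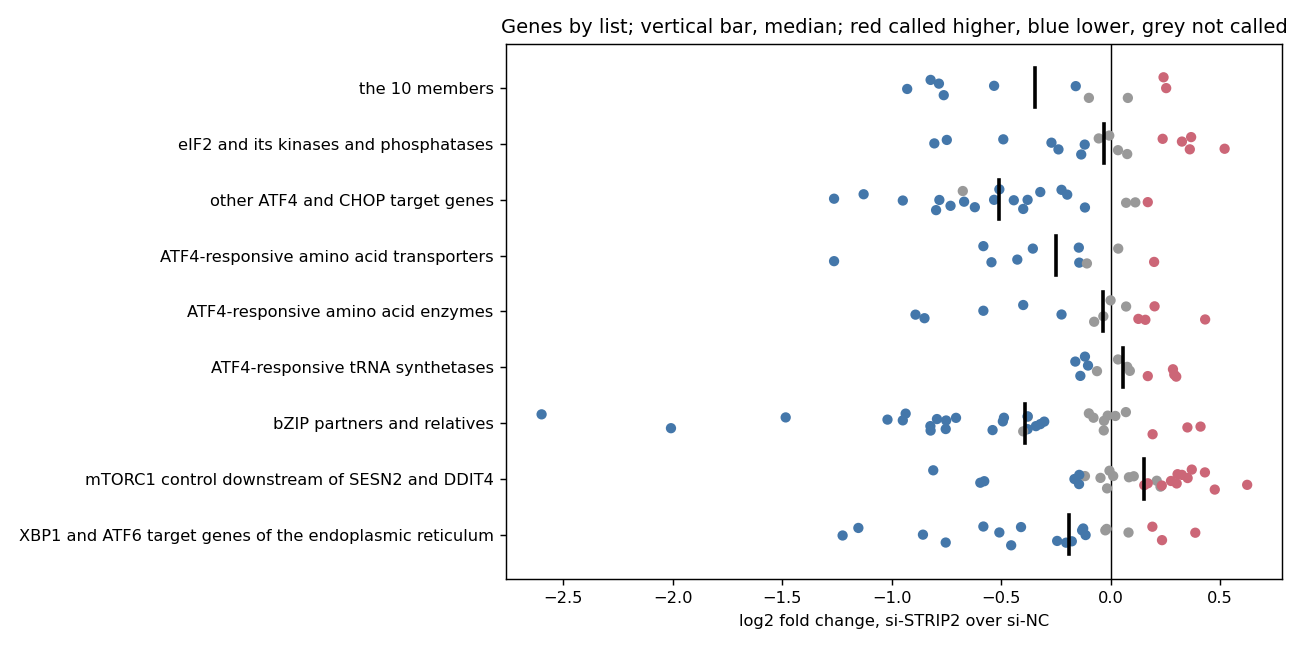
Log2 fold change (horizontal axis) of every tested gene by list, with red points called higher, blue points called lower, grey points not called and a vertical bar at the median of each list. The medians run from -0.51 for the stress and CHOP targets to 0.15 for the mTORC1 genes.

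Other bZIP genes, some of which can pair with ATF4 or compete for its sites, were mostly lower. Of 32 tested, CEBPG and CEBPB included, 20 were lower, 3 higher and 9 not called, with a median of -0.39. Among all tested genes, 27.0% were lower and 27.8% higher. This list, like the others, was chosen with earlier results of these data known, so that its counts are a description and not independent support. JUN fell from 14.77 ± 0.786 to 2.423 ± 0.454 FPKM and FOS from 22.06 ± 3.49 to 5.47 ± 0.69 FPKM (SD, n = 3), with log2 fold changes of -2.60 and -2.01. Their products pair to form the AP-1 factor and are induced early after growth stimuli. NFIL3, a repressor with a similar DNA-binding domain, had a log2 fold change of -0.94, HLF -1.48 and MAFF -1.02, all with an edgeR adjusted p of at most 1.30e-11. FOSL1 (0.41), ATF6B (0.35) and DBP (0.19) were the 3 that rose.

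Genes of mTORC1 and the pathway on which SESN2 and DDIT4 act numbered 27 among the tested genes, of which 12 were higher and 6 lower, with a median of 0.15, against 27.8% higher and 27.0% lower among all tested genes. Against a 1.2-fold change the counts were 3 and 3. SESN1, a relative of SESN2, rose from 2.297 ± 0.133 to 3.543 ± 0.0929 FPKM (SD, n = 3; log2 fold change 0.62, edgeR adjusted p = 1.04e-08), while SESN3 fell by 0.58 on the log2 scale. The 2 relatives of SESN2 thus moved in opposite directions. WDR59, of the GATOR2 complex, rose by 0.48 and MTOR, the kinase itself, by 0.30. RRAGD, a GTPase that recruits mTORC1 to lysosomes, had a log2 fold change of -0.81 and DEPTOR, an inhibitor bound to mTOR, of -0.60.

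The target genes of XBP1 and ATF6, the other arms of the endoplasmic reticulum stress response, were examined beside the ATF4 arm. Of 20, 14 were lower and 3 higher, with a median of -0.19, where 27.0% of all tested genes were lower. HSPA5, the chaperone BiP, went from 418.2 ± 10.4 to 231.4 ± 4.84 FPKM (SD, n = 3; log2 fold change -0.86, edgeR adjusted p = 7.30e-17). DNAJB9, a co-chaperone of BiP, and SEL1L, of the degradation complex, had log2 fold changes of -1.22 and -1.15. CALR (0.19), EDEM1 (0.23) and SDF2L1 (0.39) rose.

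The profile of ATF4 over the 6 libraries was compared with those of 6756 genes whose mean was 5 FPKM or more, by the Euclidean distance between log2(FPKM + 1) values centred for each gene. The nearest were IPO9 (distance 0.0325), KCTD3 (0.0395), GFUS (0.0425), POLD3 (0.0456) and XPO7 (0.0464). Their log2 fold changes lay between 0.26 and 0.30. No other member was among these 5, and NUPR1 was below the limit of the search.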

How the data were processed

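RNA-seq was measured in 6 HCT116 libraries. Per the labels' protocols, poly(A) RNA was selected from TRIzol extracts and directional libraries were made. Per the submitters' processing notes, HISAT2 2.2.1, HTSeq 0.6.1, cutadapt 1.9.1 and GRCh38.p13 were used; the roles, annotation release and use of strand in counting are not given in the sources used here. Per the file headers, the authors deposited raw counts and FPKM per gene; FPKM recomputed from the counts and exonic sizes differed by at most 0.005.

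Genes were kept by filterByExpr (minimum count 10), leaving 15687 with 99.8% of counts. edgeR 4.0.16 in R 4.3.3, with TMM scaling (factors 0.99 to 1.01) and group as the only term, gave 2-sided quasi-likelihood tests; the standard error is the absolute log2 fold change over the square root of F. DESeq2 1.42.0 and limma 3.58.1 served in alternatives, limma on log2(FPKM + 1). A count of 3 or fewer cannot be told from 0. On counts simulated for these 15687 genes, 73.0% of genes changed by 0.5 (log2), 92.4% by 1 and 98.6% by 2 were recovered. These changes were set in 63, 66 and 71 genes, far fewer than the 8599 called in the data. The recovery in the data may therefore differ, and changes under 0.5 were not simulated. Of the genes called in the simulation, 4.32% had no change set.

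The members and lists were chosen with earlier results of these data known. Besides the members, up to 3 called genes a list and direction with the smallest adjusted p, called genes with a 2-fold change, STRIP2 and the 5 genes nearest to ATF4 are named. Promoter windows are from RefSeq, GRCh38.p14.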

Additional observations from a re-analysis of the deposited data

How the results depend on the processing

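Results were recomputed under 17 alternative fits. CEBPG, DDIT3, TRIB3 and SESN2 were called lower in all 17, and NUPR1 in the 13 in which it was tested (it does not pass a filter of 1 FPKM). Against a 1.2-fold change in place of no change, ATF4 (0.25), DDIT4 (-0.16) and ASNS (0.24) were not called, as the stricter test implies. DDIT4 was also lost with limma on log2(TPM + 1) (-0.15). Without each library in turn, the log2 fold change of CEBPB ranged from -0.22 to -0.021 and that of ASNS from 0.17 to 0.32, and the number of members called higher from 1 to 2.

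Against a 1.2-fold change, 1943 genes were lower and 1780 higher; 0 members were higher. The counts lower and higher were then 3 and 1 for eIF2 genes, 0 and 0 for tRNA synthetases, 3 and 3 for mTORC1 genes, 8 and 0 for XBP1 and ATF6 targets, and 19 and 1 for the 4 target lists together; stress targets had 0 higher, transporters 0, enzymes 1 and bZIP genes 1. With limma on log2(TPM + 1) over 12329 genes, which changes the test, the filter and the scaling together, 2461 genes were lower and 2820 higher (5281 in all, against 6931 with limma on log2(FPKM + 1) over as many genes), with 0 tRNA synthetases, 3 mTORC1 genes and 9 XBP1 and ATF6 targets lower, and with 0 stress targets, 0 transporters, 2 enzymes and 5 genes of the 4 lists higher. The count of 1 higher transporter was 0 under DESeq2 and under limma on log2(FPKM + 1) and log2(FPKM + 0.1), and ranged from 0 to 1 without each library; lower tRNA synthetases then numbered 2 to 4. The limma fits on log2(FPKM + 1) and log2(TPM + 1) differ from each other only in the scaling. Why fewer genes were called with TPM was not tested. The core of the composite element was found in 2 members and the longer form in 0. The median log2 fold change of all tested genes lay between 0.00356 and 0.0464.

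With the replicate numbers as a replicate block, 8293 genes were called in place of 8599, with ATF4 at 0.25 and CEBPG at -0.82, and the calls of the 10 members did not change. Libraries with the same number did not deviate together: the correlations of their deviations from the group means were -0.086, -0.013 and -0.072.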
